A study of Mus musculus with 24 samples.

Results

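The genes of the mitochondrial ribosome were followed in mouse astrocytes that were starved of serum and then given insulin or insulin-like growth factor 1 (IGF-1). Members were the genes whose symbol is Mrpl or Mrps followed by a number and at most 1 letter, with a mean of at least 1 CPM (a gene's count scaled to library size, so that a library's counts sum to the same total) over 24 libraries. All 78 genes whose symbols fit also met the level, out of 32719 genes in the files. By textbook assignment 51 of them encode proteins of the large subunit and 26 proteins of the small subunit. Mrps30 and Mrps18a, named for the small subunit, belong to the large one. Mrps36, named for the small subunit too, encodes a protein now assigned to the 2-oxoglutarate dehydrogenase complex and was counted in neither.

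Mitochondria carry their own ribosomes, which translate the messages of the mitochondrial genome into core subunits of the respiratory chain and ATP synthase. Both ribosomal RNAs come from the mitochondrial genome, whereas every ribosomal protein is encoded in the nucleus, made in the cytosol and imported. Some of these proteins descend from those of bacterial ribosomes and others were gained later in evolution. Insulin and IGF-1 act through related receptors and are known to raise protein synthesis through the mTORC1 pathway, which also controls the making of cytosolic ribosomes.

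The cells were primary cortical cultures from newborn pups with a floxed insulin receptor gene (IR). Floxed control cells (IRflox) received an adenovirus for GFP alone, and knockout cells (IRKO) received one for a Cre and GFP fusion, so that virus and genotype cannot be told apart. They were used 5 days later, when each genotype had been starved of serum overnight and then treated for 6 h with vehicle, insulin at 100 nM or IGF-1 at the same dose. Each of the 6 groups held 4 libraries of poly-A RNA, read as pairs of 150 bp without strand information. All cells carried the floxed alleles and a virus, and all were serum starved before treatment. The sources do not state that the 4 libraries of each group are separate cultures, so the spread behind each p-value is that between libraries and may be purely technical.

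Libraries held 15429688 to 19010986 gene counts, and reads not counted in genes were 14.5 to 23.2% of a library. Insr, which encodes the insulin receptor, stood at 58.8 to 66.9 CPM in IRflox and 37.7 to 43.7 CPM in IRKO vehicle libraries, and the IRKO level was lower under each treatment, with no overlap between genotypes. Its counts cover the whole gene, so the level left in IRKO does not count intact transcripts. Igf1r, which encodes the IGF-1 receptor, stood at 188.5 to 193.2 CPM in IRflox and 195.4 to 202.8 CPM in IRKO vehicle libraries. Its log2 differences from vehicle were -1.115 with insulin and -0.95 with IGF-1 in IRflox, and -1.093 and -0.946 in IRKO. The part of this receptor in the responses was not tested. Summed levels of 10 astrocyte markers were 4560 to 4830 CPM under vehicle, 4410 to 4700 CPM with insulin and 4120 to 4260 CPM with IGF-1 in IRflox, and 4810 to 5040, 4710 to 4840 and 4440 to 4460 CPM in IRKO, so that IGF-1 libraries lay below vehicle libraries without overlap. Sums of 12 microglia markers were 1080 to 1120 CPM in IRflox and 1330 to 1350 CPM in IRKO vehicle libraries, and 911 to 983 and 1090 to 1160 CPM in the treated ones. Sums of 8 oligodendrocyte lineage markers moved the other way, from 243 to 263 CPM under vehicle to 315 to 392 CPM with ligand in IRflox, and from 267 to 284 to 371 to 431 CPM in IRKO. Sums over 7 neuron markers were 74.9 to 81.7 CPM under vehicle and 68.5 to 86.5 CPM with ligand in IRflox, and 63.7 to 75.0 and 56.6 to 61.4 CPM in IRKO. Those over 8 fibroblast and mural and 6 endothelium markers were 288 to 366 and 6.22 to 11.3 CPM. With insulin and IGF-1 in IRflox and then in IRKO, 8, 5, 10 and 9 of 12 microglia markers were lower and 0 higher. In the same order, 3, 2, 2 and 3 of 6 tested oligodendrocyte lineage markers were higher and 1, 2, 1 and 2 lower. Of all tested genes 24.3 to 26.9% were higher and 21.4 to 25.1% lower. The astrocyte sum is led by Slc1a3, Aqp4 and Gfap (means 1350, 1160 and 686 CPM), and calls of single astrocyte markers are not given here. The part of these marker shifts in the results was not tested. In cultures of mixed cells, fewer cells of a type and less RNA per cell cannot be told apart.

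Mitochondrial ribosomal protein genes were expressed at moderate levels, and each could be measured in every library. Mean CPM over all libraries ran from 9.05 for Mrps36 to 119 for Mrps6, with a median of 26.8 CPM, and the lowest single count of any member was 100. Levels of different genes were compared per kilobase of exon, since longer transcripts collect more reads. On that scale members ran from 2.39 to 77.6 CPM per kb (median 12.1), whereas the 77 cytosolic ribosomal protein genes had a median of 119 CPM per kb. Mrps6 stood highest at 77.6 CPM per kb, followed by Mrpl52 at 36.1 and Mrps21 at 34.1 CPM per kb. The lowest were Mrps35, Mrpl15 and Mrpl23 at 2.39, 2.97 and 3.36 CPM per kb, all with long annotated exon unions of 8631, 8487 and 4883 bp.

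The members are scattered over 17 chromosomes (mm10, GRCm38; GENCODE M21). A gene on the opposite strand started within 1000 bp of 32 of the 78 (41.0%), which holds for 15.3% of all tested genes. Among them, Mrps18b on chromosome 17 (35910379 to 35916389, minus strand) starts 45 bp from Ppp1r10, and Mrps27 on chromosome 13 (99344786 to 99415562, plus strand) starts 81 bp from Ptcd2. Without strand information, counts are uncertain for 5 members with more than 20% of their exon bases inside a gene of the other strand. They are Mrps25 (69.8% shared with Nr2c2), Mrps34 (63.4% with Mapk8ip3), Mrpl19 (36.0% with Gcfc2), Mrpl43 (33.4% with Twnk) and Mrpl24 (26.3% with Rrnad1). Mrps6 on chromosome 16 (92058270 to 92112227, plus strand) shares 19.9% with Gm49711 on the same strand.

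Because most members moved together, as described further on, the sequence around their start sites was examined in RefSeq (GRCm38.p6), where 69 of the 78 had an entry running from 250 bases before the start to 50 after it. Motifs known for nuclear genes of mitochondrial function were searched as exact letters on both strands: CCGGAAG, bound by ETS factors such as GABP, GCGCATGCG, bound by NRF1, and ATGGCGGC, bound by YY1. The window of 195 bases from 170 before the start is shown for Mrps22 and Mrps27, among the members that rose most, for Mrpl22, which holds an ETS and an NRF1 match there, and for Mrpl34, which has an ETS match but rose in no comparison. Mrpl34 and Mrpl22 were picked for these matches. The full entry of Mrpl22 also holds the YY1 letters, but not within the window shown. Capitals mark the matches, and positions count from the start, with CTTCCGG being the ETS letters on the other strand.
Mrpl22 (chr11:58171494-58171688, plus strand; ETS at -53, NRF1 at -33): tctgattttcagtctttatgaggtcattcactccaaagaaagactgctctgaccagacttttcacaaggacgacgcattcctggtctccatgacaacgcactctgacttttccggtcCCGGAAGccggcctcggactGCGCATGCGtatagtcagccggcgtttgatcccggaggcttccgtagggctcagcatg
Mrps22 (chr9:98601655-98601849, minus strand; ETS at -11): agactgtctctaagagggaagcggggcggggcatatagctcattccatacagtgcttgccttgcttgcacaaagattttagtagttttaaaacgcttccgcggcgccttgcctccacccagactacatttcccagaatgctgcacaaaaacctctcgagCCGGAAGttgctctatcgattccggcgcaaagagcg
Mrps27 (chr13:99344616-99344810, plus strand; ETS at -48 on the other strand, YY1 at 18): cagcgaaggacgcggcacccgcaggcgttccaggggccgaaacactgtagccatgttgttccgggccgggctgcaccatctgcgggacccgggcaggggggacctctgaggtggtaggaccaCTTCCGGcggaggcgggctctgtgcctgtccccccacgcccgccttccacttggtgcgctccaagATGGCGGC
Mrpl34 (chr8:71464756-71464950, plus strand; ETS at -37): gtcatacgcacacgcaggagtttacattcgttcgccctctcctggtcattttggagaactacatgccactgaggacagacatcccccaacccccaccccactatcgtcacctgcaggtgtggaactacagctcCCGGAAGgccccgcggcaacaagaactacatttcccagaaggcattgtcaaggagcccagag

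The ETS letters were found in 25 of 69 member promoters (36.2%), against 16.8% of 11604 promoters of tested genes and 9.12% of all 27025 in the table. The NRF1 letters were in 7 (10.1%, against 3.46% and 1.81%), and the YY1 letters in 12 (17.4%, against 4.59% and 2.38%). At least 1 of these 3 was in 35 members (50.7%, against 22.9% and 12.4%). The E-box CACGTG, bound by MYC among other factors, was in 5 (7.25%, against 9.76% and 7.24%). A match describes the letters and does not show that a factor was bound. Mrps6 and Mrpl12, the members with the largest rises on average, hold none of the 4.

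In IRflox astrocytes, insulin raised most mitochondrial ribosomal protein genes by a modest amount. Of 78 members, 50 were higher than under vehicle and 1 was lower (edgeR quasi-likelihood test, Benjamini-Hochberg adjusted p under 0.05 over all genes), where 24.3% of the 15599 tested genes were higher and 21.4% lower. The median log2 difference was 0.26 over the members and 0.00 over all tested genes, and 73 members were above zero. A rise of more than 1.5-fold was reached by 3 members, and the share of all tested genes past that cutoff is not given here. The summed level of the 78 was 2151 ± 86.7 CPM under vehicle and 2573 ± 66.4 CPM under insulin (SD, n = 4 each), 19.6% higher. Vehicle libraries lay between 2074 and 2271 CPM and insulin libraries between 2487 and 2640 CPM, without overlap.

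With IGF-1, 61 members were higher and 3 lower in IRflox cells, against 26.4% and 24.4% of all tested genes. Their median log2 difference was 0.32, that of all genes 0.00. The sum stood at 2669 ± 55.3 CPM, 24.1% above vehicle, with libraries from 2598 to 2730 CPM.

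IRKO astrocytes were used to ask whether these responses need an intact insulin receptor gene. There too, insulin left 56 members higher and 1 lower (24.7% and 21.7% of all tested genes), with a median log2 difference of 0.26. IGF-1 left 58 higher and 2 lower (26.9% and 25.1%), with a median of 0.32. The sum rose from 2156 ± 69.5 CPM under vehicle to 2562 ± 73.0 CPM with insulin and 2646 ± 47.2 CPM with IGF-1 (SD, n = 4 each), 18.8% and 22.7% higher. Vehicle libraries ended at 2244 CPM and the treated ones began at 2467 CPM.

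**Figure D1:**
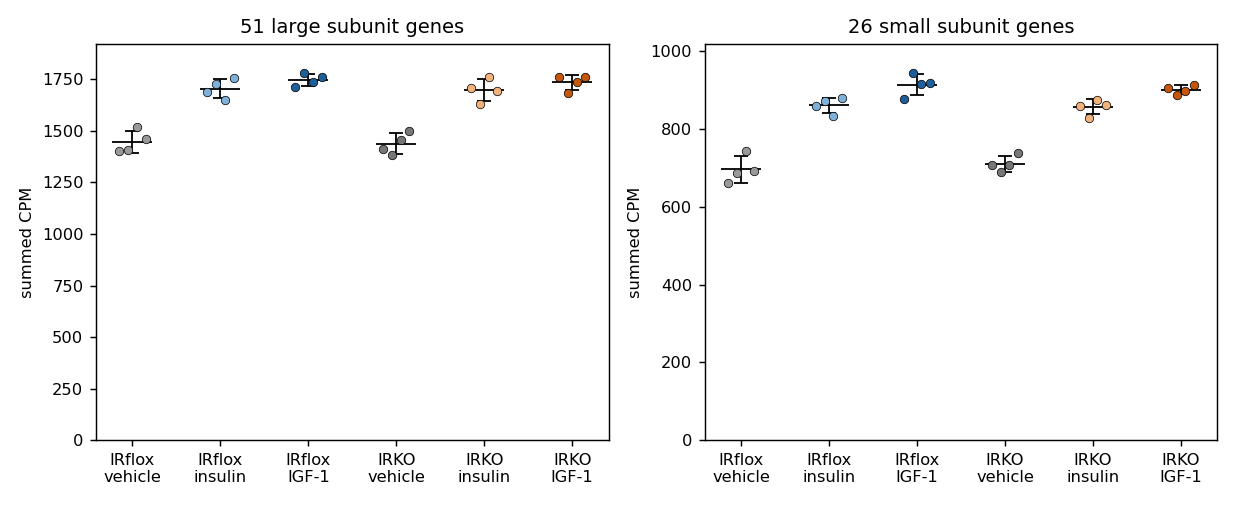
Summed CPM of 51 large subunit genes (left) and 26 small subunit genes (right) in each library (points), with the mean and SD of 4 libraries per group (bars). In both genotypes every library with insulin or IGF-1 lies above every vehicle library, and IRflox and IRKO libraries of one treatment lie at about the same height.

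Set over all 4 comparisons, which share their vehicle libraries within a genotype, 41 members were higher in every one, 66 in at least 1 and 72 were above zero in all 4. The other 12 were higher in none: 3 of them were lower in at least 1 comparison, and 9 passed in neither direction anywhere. Those 9 were Mrpl2, Mrpl14, Mrpl23, Mrpl27, Mrpl43, Mrpl48, Mrps9, Mrps31 and Mrps33, with log2 differences between -0.09 for Mrpl14 and 0.18 for Mrps31. How many of all tested genes were higher in every comparison, in at least 1 or in none is not given here. Nor is the number above zero in all 4. The member counts over the 4 comparisons are therefore not read against all tested genes.

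**Figure D2:**
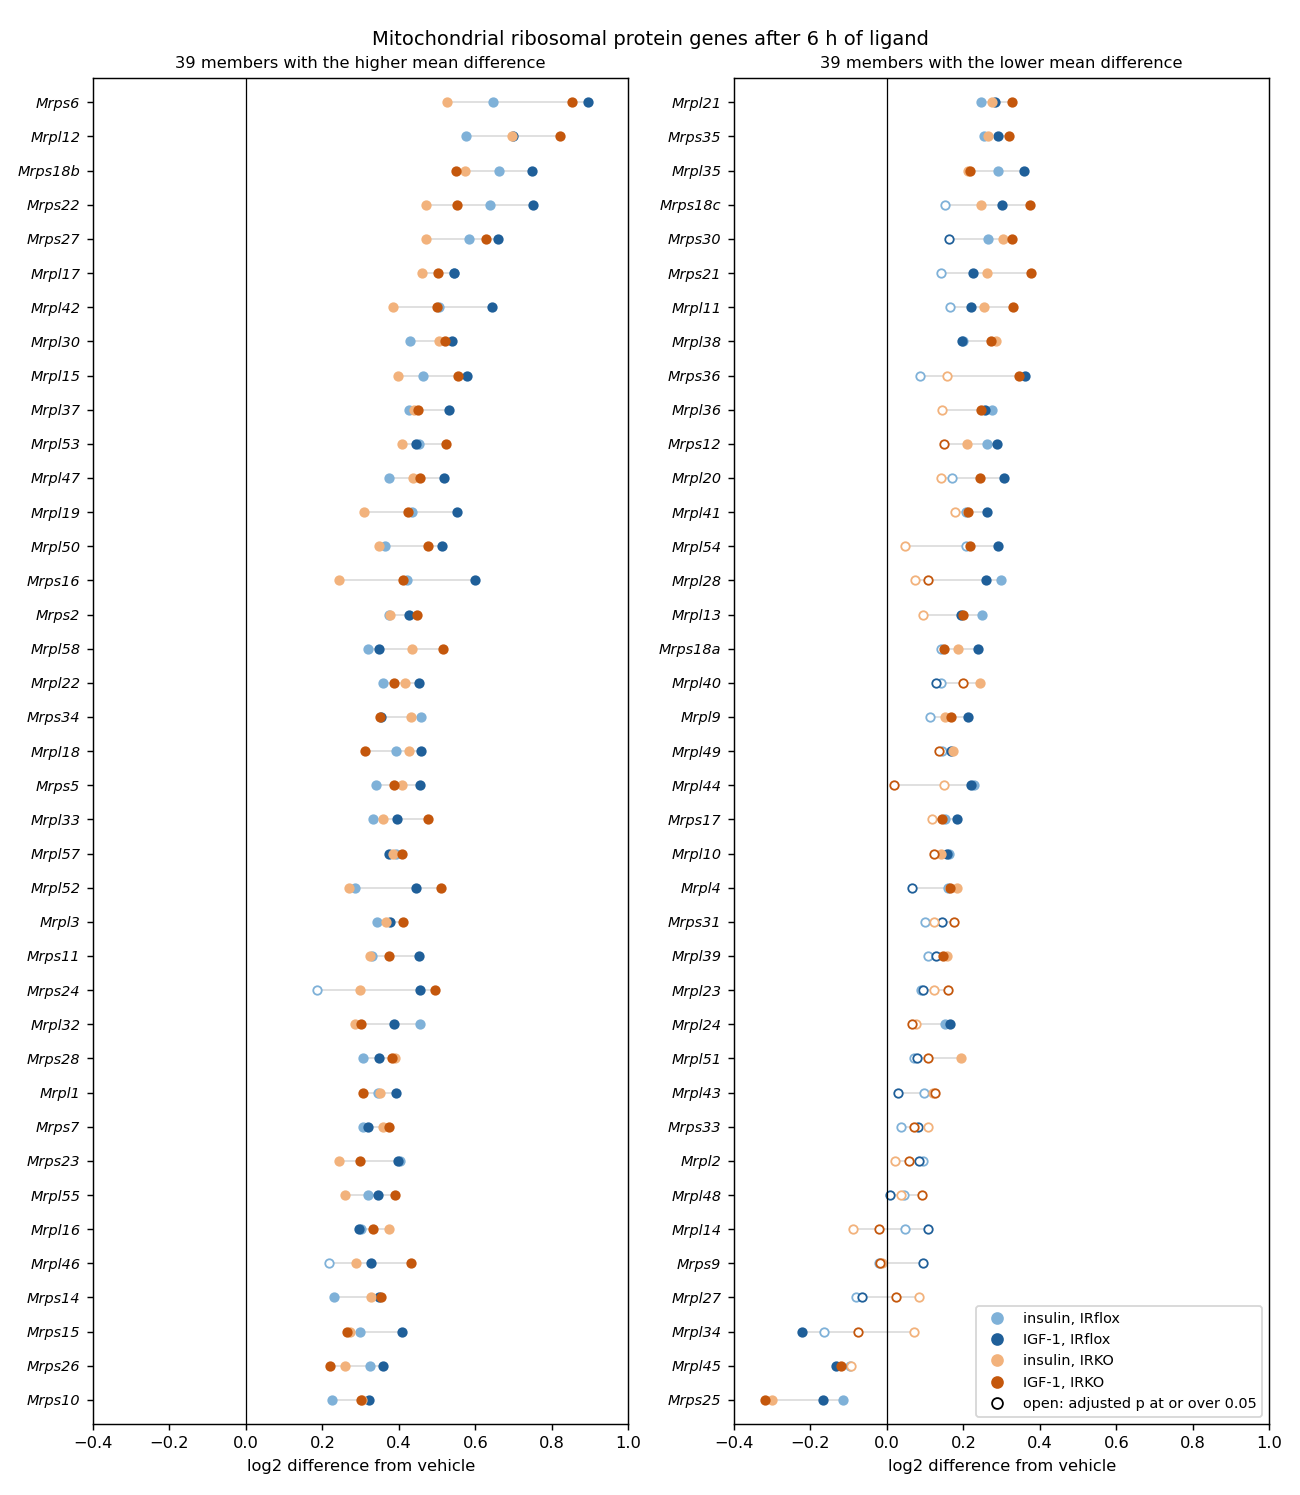
Log2 difference from vehicle (x axis) for each of the 78 members (rows, ordered by their mean over 4 comparisons), with insulin and IGF-1 in IRflox (blue) and IRKO (orange). Filled points passed the edgeR test, and most rows lie to the right of zero, led by Mrps6 and Mrpl12, with Mrpl34, Mrpl45 and Mrps25 at the bottom.

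Members of both subunits were mostly higher with ligand. In the small subunit, 19 of 26 members were higher with insulin and 22 with IGF-1 in IRflox, and 21 and 21 in IRKO, with 1 member lower in each. In the large subunit the counts were 31 and 38 of 51 higher in IRflox and 35 and 36 in IRKO, with 0, 2, 0 and 1 lower. Medians of the log2 differences were 0.30, 0.35, 0.28 and 0.36 for the small and 0.25, 0.28, 0.25 and 0.27 for the large subunit, in the same order. Summed CPM of the small subunit was 23.6% and 31.2% above vehicle in IRflox and 20.5% and 26.8% in IRKO, and that of the large subunit 17.7%, 20.6%, 18.0% and 20.7%. The difference between subunits was not tested.

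Proteins with a bacterial homologue and those without one both held rising genes. Of the 48 genes with one, 34 and 41 were higher with insulin and IGF-1 in IRflox and 36 and 38 in IRKO. Of the 29 without, the counts were 16, 19, 20 and 19. Rising genes were found at all levels of abundance: with insulin in IRflox, 14 of the 26 least abundant members, 19 of the middle 26 and 17 of the 26 most abundant were higher, with medians of 0.26, 0.27 and 0.22. Leaving out the 5 members with shared exons, 47 of 73 were higher with insulin and 58 with IGF-1 in IRflox, and 54 and 56 in IRKO.

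Mrps6, a small subunit protein of the bacterial S6 family, showed the highest level and the largest rise with IGF-1. Vehicle libraries of IRflox cells gave 75.4, 83.9, 89.3 and 75.2 CPM, insulin libraries 123, 131, 129 and 124 CPM, and IGF-1 libraries 139, 157, 163 and 143 CPM. The 3 treatments did not overlap. The log2 difference from vehicle was 0.65 (SE 0.050, edgeR adjusted p = 3.7e-14) with insulin and 0.89 (SE 0.050, edgeR adjusted p = 7.95e-19) with IGF-1. In IRKO cells the same order held, with 80.9 to 88.0 CPM under vehicle, 116 to 125 CPM with insulin and 146 to 158 CPM with IGF-1, log2 differences of 0.53 and 0.85. Mrps6 shares its start region with Slc5a3, the myo-inositol transporter gene, which went from 204 CPM under vehicle to 277 with insulin and 386 with IGF-1 in IRflox (log2 0.44 and 0.92). Gm49711, with which Mrps6 shares exon sequence, changed by 0.55 and 0.74. How far reads of these neighbours add to the Mrps6 counts was not tested. Without Mrps6 the members' sum was still 18.2% and 21.7% above vehicle in IRflox and 17.8% and 20.4% in IRKO.

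Mrps18b, 1 of 3 mammalian forms of the S18 protein, had 18.8, 19.4, 20.4 and 17.6 CPM in the IRflox vehicle libraries, 28.0, 31.7, 28.9 and 31.9 CPM with insulin, and 32.5, 30.4, 34.9 and 30.1 CPM with IGF-1. Each treated library was above each vehicle library. Its log2 differences were 0.66 (SE 0.071, edgeR adjusted p = 2.1e-10) and 0.75 (SE 0.070, edgeR adjusted p = 5.25e-12), and in IRKO 0.57 and 0.55. The other forms rose too, and the difference between forms was not tested. Mrps18c, a small subunit protein picked with its values known, rose by 0.30 with IGF-1 in IRflox (edgeR adjusted p = 0.0021) and by 0.25 and 0.37 in IRKO, and differed by 0.15 with insulin in IRflox without passing. Its insulin call in IRKO was lost without IRKO vehicle replicate 4 or insulin replicate 3 or 4 (edgeR adjusted p up to 0.0669). Mrps18a, a large subunit protein, differed by 0.14, which did not pass (edgeR adjusted p = 0.0531), with insulin in IRflox, and rose by 0.24 with IGF-1 there and by 0.19 and 0.15 in IRKO. Of these Mrps18a calls, the one with insulin in IRKO was lost without IRKO vehicle replicate 4 (edgeR adjusted p = 0.0673), and the one with IGF-1 in IRKO was lost in 6 of 8 such omissions (up to 0.151).

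Mrps22, a small subunit protein with no bacterial homologue, whose promoter is printed above, stood at 12.5, 13.6, 16.3 and 14.3 CPM under vehicle in IRflox. Insulin libraries held 21.3, 21.7, 22.2 and 23.1 CPM and IGF-1 libraries 25.2, 24.7, 21.5 and 24.2 CPM, so vehicle stood apart from both ligands while the ligands overlapped. Log2 differences were 0.64 and 0.75 in IRflox, and 0.47 and 0.55 in IRKO (SE 0.081 to 0.083, highest edgeR adjusted p = 5.92e-06). Mrps27, a pentatricopeptide repeat protein of the small subunit, went from 16.3 to 18.2 CPM under vehicle to 23.0 to 26.3 with insulin and 25.1 to 28.8 CPM with IGF-1 in IRflox. In IRKO it went from 17.9 to 19.5 CPM to 25.3 to 26.6 and 26.4 to 30.8 CPM. Its log2 differences were 0.58, 0.66, 0.47 and 0.63.

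In the large subunit Mrpl12 rose most. It is the counterpart of bacterial L7/L12, which forms the stalk that recruits translation factors, and it has also been linked to the mitochondrial RNA polymerase. Vehicle libraries held 33.7, 34.5, 40.6 and 36.2 CPM in IRflox and 34.9, 33.7, 32.8 and 34.1 CPM in IRKO. Insulin libraries held 47.0 to 58.8 and 52.8 to 57.6 CPM, and IGF-1 libraries 56.5 to 61.7 and 53.4 to 62.8 CPM. The log2 differences were 0.57, 0.70, 0.70 and 0.82 (SE 0.063, highest edgeR adjusted p = 5.05e-10), and no treated library reached down to a vehicle library. Mrpl30 rose by 0.43 to 0.54 and Mrpl15 by 0.40 to 0.58 over the 4 comparisons. Both are large subunit proteins with bacterial homologues. Mrpl22, also a large subunit protein and printed above for its ETS and NRF1 matches, rose by 0.36 to 0.45. It was picked with its values known.

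**Figure D3:**
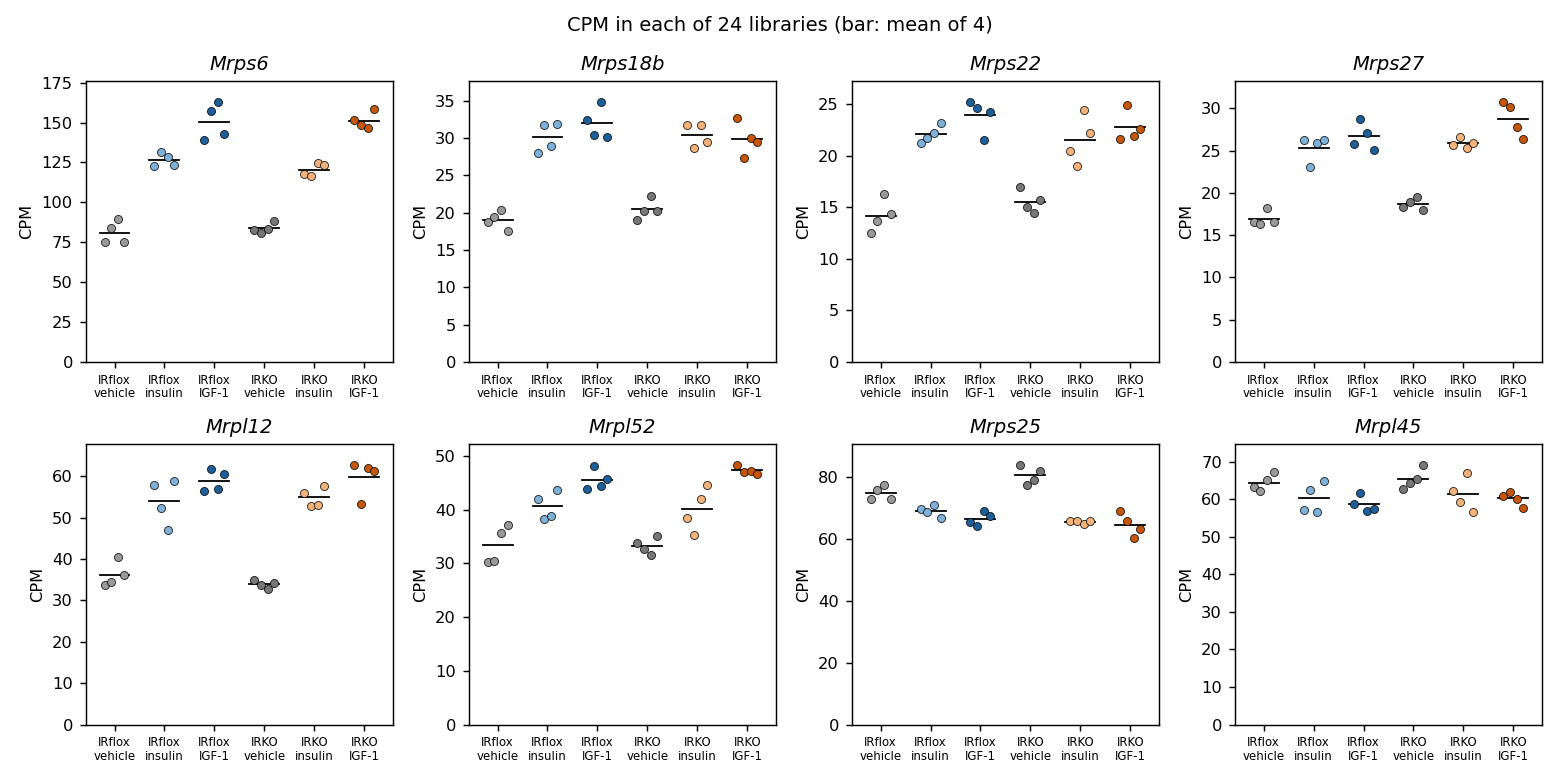
CPM of 8 members in each of the 24 libraries (points), by group, with the mean of 4 as a bar. Mrps6, Mrps18b, Mrps22, Mrps27 and Mrpl12 separate vehicle from ligand in both genotypes, Mrpl52 lies highest with IGF-1, and Mrps25 lies highest under vehicle.

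Among the members with shared exons, Mrps34 and Mrpl19 rose in all 4 comparisons, by 0.35 to 0.46 and 0.31 to 0.55, while their partners Mapk8ip3 and Gcfc2 differed from vehicle by -0.04 to 0.07 and -0.06 to 0.06. Mrpl24 rose by 0.15 and 0.17 in IRflox and differed by 0.08 and 0.07, without passing, in IRKO. Its insulin call was lost in 6 of 8 omissions of a library (edgeR adjusted p up to 0.188), and its IGF-1 call without IRflox vehicle replicate 1 or 4 (up to 0.081). Its partner Rrnad1 rose with IGF-1 in IRflox by 0.14 (edgeR adjusted p = 0.0278) and differed by 0.05, 0.09 and 0.10, without passing, in the other 3. Mrpl43 passed in no comparison, while its partner Twnk fell with IGF-1 in IRflox (log2 -0.19, edgeR adjusted p = 0.00661) and passed in no other of the 4. For both pairs, the part of the partner's reads in the member's counts was not tested.

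Mrps36, counted in neither subunit, did not pass with insulin (log2 0.09 and 0.16) and rose with IGF-1 by 0.36 in IRflox and 0.35 in IRKO. It was the least abundant member at 6.62 to 9.18 CPM under vehicle and 9.36 to 10.8 CPM with IGF-1 in IRflox, and each of the 2 calls was lost in 3 of 8 omissions. Those were IRflox vehicle replicates 2 and 4 and IGF-1 replicate 4 (edgeR adjusted p up to 0.0824), and IRKO vehicle replicate 3 and IGF-1 replicates 2 and 3 (up to 0.0817). Mrps30, a large subunit protein despite its name, rose by 0.26 with insulin in IRflox and by 0.30 and 0.33 in IRKO. With IGF-1 in IRflox its difference was 0.16 (edgeR adjusted p = 0.0661), and the insulin call in IRflox was lost without insulin replicate 4 (edgeR adjusted p = 0.0757).

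In the 4 comparisons with vehicle 3 members were lower at least once. Mrps25, a small subunit protein, was lower in all 4. It had 72.7, 75.6, 77.2 and 72.8 CPM under vehicle in IRflox, 66.7 to 71.0 CPM with insulin and 64.0 to 68.8 CPM with IGF-1. In IRKO, vehicle libraries held 77.2 to 83.9 CPM, insulin libraries 64.7 to 65.7 CPM and IGF-1 libraries 60.1 to 69.0 CPM. The log2 differences were -0.11, -0.17, -0.30 and -0.32 (SE 0.043 to 0.044), and the first was lost without IRflox vehicle replicate 3 or insulin replicate 4 (edgeR adjusted p = 0.0838 and 0.0664). Nr2c2, the nuclear receptor gene with which Mrps25 shares 69.8% of its exon length, was itself lower by -0.39, -0.45, -0.51 and -0.50 on the log2 scale. Reads of the 2 genes cannot be told apart in the shared stretch, so the direction of Mrps25 is uncertain.

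Mrpl45, a large subunit protein that helps to attach the ribosome to the inner membrane, was lower with IGF-1, at 57.0 to 61.7 CPM against 62.2 to 67.4 CPM under vehicle in IRflox (log2 -0.13, SE 0.051, edgeR adjusted p = 0.0264). In IRKO it was lower by -0.12 (edgeR adjusted p = 0.0442). The first call was lost without IRflox vehicle replicate 4 (0.0791) or IGF-1 replicate 3 (0.0671), and the second in 5 of 8 omissions (edgeR adjusted p up to 0.109). Mrpl34 was lower with IGF-1 in IRflox (log2 -0.22, edgeR adjusted p = 0.0469), with 16.3 to 19.9 CPM overlapping 18.2 to 21.5 CPM under vehicle, and that call was lost in 6 of 8 omissions (up to 0.104) and kept without vehicle replicate 2 or IGF-1 replicate 2.

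IGF-1 and insulin were compared directly at the same dose and time. Few members differed, as did few of all tested genes, and a difference between these shares was not tested. In IRflox 1 member was higher with IGF-1 and 0 lower (1.10% and 1.49% of all tested genes). There 8 members passed an unadjusted p under 0.05. The count of all tested genes at that threshold is not given here, so the 8 are not read against it. In IRKO 2 were higher and 0 lower (1.61% and 1.06%). With both genotypes averaged 4 were higher and 0 lower (4.29% and 4.26%), and the median log2 difference was 0.04, with 58 of 78 above zero. The cytosolic ribosomal protein genes had 39 of 77 higher in that comparison and a median of 0.12.

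Mrps6 was the member that passed in each of these comparisons, with log2 differences of 0.25 in IRflox (SE 0.048, edgeR adjusted p = 0.0013) and 0.33 in IRKO (SE 0.048, edgeR adjusted p = 2.77e-05). Mrpl52, a large subunit protein with no bacterial homologue, was higher in IRKO, at 46.6 to 48.4 CPM with IGF-1 against 35.3 to 44.6 CPM with insulin (log2 0.24, edgeR adjusted p = 0.0307), a call lost in 6 of 8 omissions (up to 0.166). With genotypes averaged its difference was 0.20 (edgeR adjusted p = 0.00306). Mrps24 and Mrpl15 passed in the average, by 0.23 and 0.14, and these calls were lost in 6 and 11 of 16 omissions of a library (edgeR adjusted p up to 0.08 and 0.131). The median standard error of a member's difference within one genotype was 0.07.

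Knockout and floxed control cells of the same treatment differed little in these genes. In edgeR's test 0 members passed under vehicle (3.76% of all tested genes higher, 4.10% lower in IRKO), 0 with insulin (4.94% and 5.53%) and 0 with IGF-1 (3.62% and 3.15%). At an unadjusted p under 0.05 the counts were 3, 4 and 5. Counts of all tested genes at that threshold are not given here, so these 3 counts are not read against them. DESeq2 also called 0 members in each. Log2 differences of the members lay between -0.18 and 0.17 under vehicle, -0.15 and 0.15 with insulin, and -0.21 and 0.20 with IGF-1, with a median standard error of 0.07 to 0.08. The members' sums under vehicle were 2151 ± 86.7 CPM in IRflox and 2156 ± 69.5 CPM in IRKO, and their ranges overlapped.

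Averaged over the 3 treatments, 0 members were higher in IRKO and 3 were lower (12.8% and 13.0% of all tested genes). Mrpl10, the counterpart of the bacterial L10 protein at the base of the stalk, had 40.2 to 40.7 CPM in IRflox and 35.3 to 40.0 CPM in IRKO under vehicle, and its averaged difference was -0.12 (SE 0.033, edgeR adjusted p = 0.00501). Mrpl39 and Mrps2 differed by -0.10 each (edgeR adjusted p = 0.0141 and 0.0453). The Mrps2 call was lost in 14 of 24 omissions of a library (up to 0.108). All 3 differences were smaller than the median ligand response.

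The responses themselves were compared between genotypes by an interaction term. For insulin and for IGF-1, 0 members passed, as did 0 of the 15599 tested genes (0% in edgeR), and 2 members in each case had an unadjusted p under 0.05, as did 838 and 822 of all tested genes. DESeq2 called 0 members in each, and 0 and 2 of all tested genes. The members' differences between genotypes in the insulin response ran from -0.22 to 0.24 on the log2 scale, with a median of 0.01 and a median standard error of 0.10, and those in the IGF-1 response from -0.20 to 0.17, with a median of -0.02. A p that misses the threshold does not show equal responses, and for Mrps6 the difference in the insulin response was -0.12 with a standard error of 0.070.

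**Figure D4:**
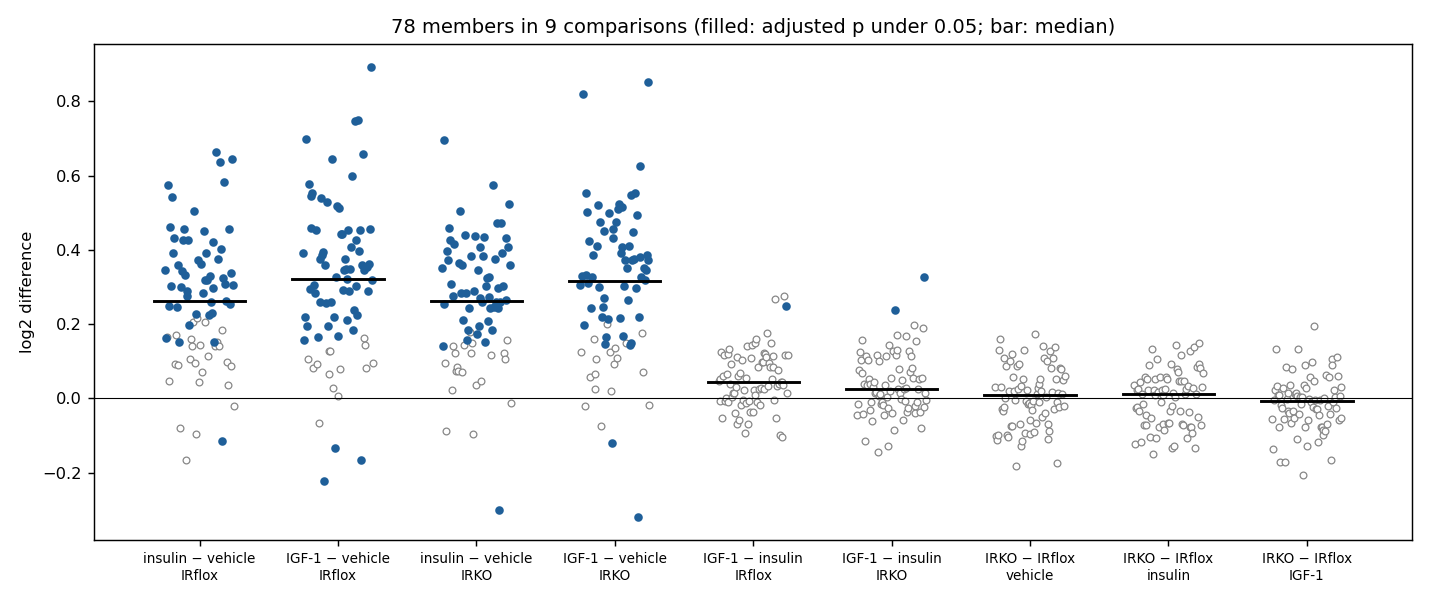
Log2 differences of the 78 members in 9 comparisons (points, filled where edgeR's adjusted p was under 0.05), with medians as bars. Medians of the 4 comparisons with vehicle are 0.26 to 0.32, and those of the direct ligand comparisons and of IRKO against IRflox are between -0.01 and 0.04.

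Genes of mitochondrial translation outside the rule also held rising members, and shares of different lists were not tested against each other. Of all tested genes, 24.3 and 26.4% were higher with insulin and IGF-1 in IRflox and 24.7 and 26.9% in IRKO. Those lower were 21.4, 24.4, 21.7 and 25.1% in the same order. Of 5 mitochondrial ribosome proteins under other symbols, 3 and 4 were higher with insulin and IGF-1 in IRflox and 4 and 4 in IRKO. Ptcd3, a small subunit protein, rose by 0.48, 0.62, 0.36 and 0.37, and Gadd45gip1, a large subunit protein, by 0.31 to 0.36. Of 26 assembly factors, 11, 10, 13 and 12 were higher and 1, 1, 0 and 3 lower. These include Mrm3, a methyltransferase of the large ribosomal RNA, which rose by 0.66 to 0.77, and Fastkd2, which acts in assembly of the large subunit and rose by 0.50 to 0.67.

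Of 16 translation factors, 6 and 8 were higher in IRflox and 4 and 7 in IRKO, and 0 were lower. The 4 of 16 with insulin in IRKO were about the share of all tested genes higher there (24.7%). Tufm, the elongation factor Tu of mitochondria, rose by 0.33 to 0.40. Among 20 mitochondrial aminoacyl-tRNA synthetases, which charge tRNAs with amino acids, 7, 8, 11 and 11 were higher and 1, 4, 1 and 1 lower, and Yars2, Mars2 and Ears2 rose by 0.58 to 0.95. Of 19 genes of mitochondrial transcription and RNA handling 10, 11, 10 and 10 were higher and 1, 1, 0 and 0 lower. The 77 cytosolic ribosomal protein genes had 72, 77, 74 and 77 higher and 0 lower, with medians of 0.32, 0.43, 0.33 and 0.44.

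**Figure D5:**
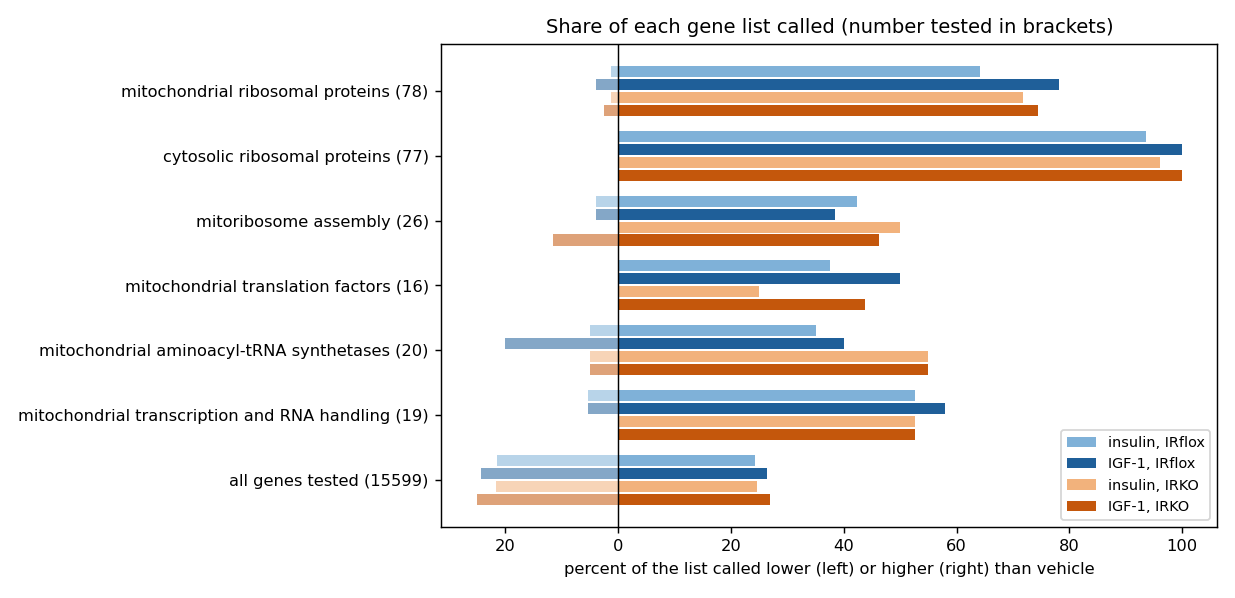
Share of each gene list called higher (right) or lower (left) than vehicle in 4 comparisons, with the number of genes tested in brackets. Mitochondrial ribosomal protein genes were called higher in 64.1 to 78.2%, cytosolic ones in 93.5 to 100% and all tested genes in 24.3 to 26.9%.

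Regulators of mitochondrial gene programmes held calls in both directions. Of 11 genes, 1, 2, 3 and 2 were higher and 3 lower in each comparison. Of all tested genes 24.3 to 26.9% were higher and 21.4 to 25.1% lower, and a difference of this short list from those shares was not tested. Pprc1, a coactivator of the PGC-1 family, rose by 0.64, 0.69, 0.68 and 0.82. Gabpa, which encodes the DNA-binding subunit of GABP, was lower by -0.14 to -0.22, and Myc was lower by -0.29 to -0.39. These are transcript levels and say nothing of the activity of the factors. Set by motif, 17 of 25 members with the ETS letters and 26 of 44 without were higher with insulin in IRflox, with medians of 0.32 and 0.23. With IGF-1 in IRflox the counts were 20 of 25 and 33 of 44, with medians of 0.38 and 0.30. Of 35 members with the ETS, NRF1 or YY1 letters, 25 and 28 were higher with insulin and IGF-1 in IRflox. In IRKO 31 and 28 of them were higher. Of the 34 with none of the 3, the counts were 18, 25, 18 and 21 in the same order. These differences were not tested.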

How the data were processed

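The files deposited by the authors hold whole-number read counts for each gene and were not normalized. Per the submitters' processing notes, the mm10 genome, STAR 2.7.7a, R 4.0.4, edgeR and DESeq2 were used, with no role stated. Which program and annotation gave the counts is not given in these sources. Lines naming no gene were dropped: reads outside genes were 14.5 to 23.2% of a library. Files were joined by Ensembl identifier and groups were taken from the sample titles.

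Genes kept by edgeR's expression filter (minimum count 10, minimum total 15) numbered 15599, all 78 members among them. edgeR 4.0.16 in R 4.3.3 fitted 1 mean per group to all 24 libraries with TMM scaling (factors 0.982 to 1.018) and its quasi-likelihood test, and p-values were Benjamini-Hochberg adjusted over all tested genes within a comparison, with calls at an adjusted p under 0.05. The biological coefficient of variation was 4.9%. Errors of log2 differences are standard errors of the fit, and CPM of genes use TMM sizes, while CPM sums of cell type markers use library totals. CPM are shares of the counted RNA, so they do not give amounts per cell. Exon lengths, coordinates and overlaps come from GENCODE M21, which held all 78. Promoters come from RefSeq, with the first entry taken where a gene had several. Alternatives were DESeq2 1.42.0, library size alone as scaling, other filters, a replicate block, the groups of a contrast alone and leaving out each library. The functions were tested on simulated counts with known changes.

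The members and lists were chosen with earlier results of these data known. Named members were, for each comparison with vehicle, the 5 largest rises and up to 5 largest falls that passed, for each other comparison up to 5 per direction by p, the 3 highest and 3 lowest per kilobase, those sharing over 20% of exon length, and always Mrpl12, Mrps36, Mrps30, Mrps18a and Mrps6. Other named genes were Insr, Igf1r, up to 3 of each list by p with insulin in IRflox, and genes that share sequence or a start region with a named member. Genes named beside these were chosen with their values known.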

Additional observations from a re-analysis of the deposited data

Results flagged for a closer look

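Of 156 groups of 4 libraries examined for the named members, 7 held a library set apart from the other 3 by more than the 95% critical value of Dixon's ratio for 4 samples. By chance about 5% of groups would show this, so 7 is no more than chance gives. In IRKO with IGF-1, Mrpl12 had 1 library at 53.4 CPM, the next being 61.3, and Mrpl43 had 1 at 24.9 CPM against 26.5 CPM or more. In IRflox under vehicle, Mrpl34 had 1 library at 18.2 CPM below 21.3 CPM, and Mrps27 had 1 at 18.2 CPM above 16.6 CPM. Mrps27 also had 1 insulin library of IRflox at 23.0 CPM below 25.9 CPM. Mrps25 in IRKO with insulin had 1 library at 64.7 CPM, where the other 3 lay at 65.5 to 65.7 CPM. Mrps30 had 1 IGF-1 library of IRflox at 28.2 CPM below 33.2 CPM.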

How the results depend on the processing

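Counts of higher and lower members moved by at most 1.5 times under DESeq2 and in fits to the groups of a contrast alone, and no result reversed in any alternative run. Leaving out each library, members higher than vehicle numbered 45 to 53 and 55 to 62 in IRflox (insulin, IGF-1) and 44 to 53 and 48 to 58 in IRKO. Lower members numbered 0 to 1 and 1 to 3 in IRflox and 1 to 2 with either ligand in IRKO. Between IGF-1 and insulin, 1 to 2 were higher in IRflox, 1 to 2 in IRKO and 2 to 6 in the average. IRKO against IRflox gave 0 to 1 lower with IGF-1, and 0 to 2 higher and 2 to 6 lower in the average of treatments. Members lower with insulin in IRflox, 1 in the fit reported, were 2 with a filter at a mean CPM of 1 and 0 with no filter. Members higher in IRKO in the average were 3 when scaled by library size alone, where 0 is reported.

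Replicate numbers are shared by the groups but did not pair libraries: 0 of 60 pairs with the same number had a correlation of deviations over 0.1 (median 0.007), and of the best matches of a library in each other group 25.8% had its own number. With the replicate block, members lower with IGF-1 in IRKO were 1, and in the average of treatments 1 was higher and 5 were lower in IRKO. The cause of these shifts was not tested. Single calls lost in an alternative other than an omission were of Mrpl10, Mrpl15, Mrpl24, Mrpl34, Mrpl39, Mrpl45, Mrps2, Mrps18a and Mrps25. Depth limits the least abundant members: for Mrps36 the standard error of a difference from vehicle was 0.13.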
